A study of Caenorhabditis elegans with 2 samples.

Results

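Metabolic nuclear hormone receptor genes are 7 Caenorhabditis elegans genes, nhr-49, nhr-80, nhr-13, nhr-66, nhr-68, nhr-10 and nhr-114, taken from a fixed list of receptors of lipid and propionate metabolism, out of 269 genes named nhr and 19973 nuclear protein-coding genes. They were examined for chromatin immunoprecipitation followed by sequencing (ChIP-seq) peaks of another receptor, NHR-43. The animals were whole hermaphrodite L3 larvae of strain OP477, harvested 36.5 h after release from L1 starvation. This strain carries unc-119(tm4063) and the integrated transgene wgIs477, whose product is NHR-43 fused at its C-terminus to GFP and FLAG, and chromatin was precipitated with an antibody against GFP. There were 2 biological replicates of this 1 group and therefore no comparison between conditions. Every library comes from the same transgenic line, so the peaks are those of the tagged transgene product in whole animals, summed over all tissues. The labels also list a control experiment, whose libraries were not analysed here.

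Nuclear hormone receptors bind DNA through a zinc finger domain and regulate transcription, in many cases in response to small lipophilic molecules. The family is greatly expanded in C. elegans, and many of its members are related to the mammalian receptor HNF4. NHR-49 controls fatty acid desaturation and beta-oxidation and the response to fasting, and it works with NHR-80, NHR-13 and NHR-66 as partners. NHR-10 and NHR-68 activate the propionate shunt, a breakdown route used when vitamin B12 is scarce, and NHR-114 regulates genes of the methionine and S-adenosylmethionine (SAM) cycle.

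A summit, the highest point of a peak, was assigned to a gene when it lay between 2000 bp upstream of the annotated 5' end and the end of the gene. The thresholded list held 3889 peaks that passed an irreproducible discovery rate analysis. They were also the 3889 peaks of highest signal from the pooled reads. A place in the list therefore does not mean a close summit in each replicate. The longer relaxed lists held 30000 peaks from the pooled reads, 29315 from replicate 1 and 30000 from replicate 2, and include weak peaks. The signal of a peak is the authors' own value on a scale that belongs to its list, and ranks count from the highest signal of that list. With read depth not given in the sources used here, signals carry no interval.

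The sequences at the strongest summit of the 5 receptor genes outside nhr-49 and nhr-13 are shown first, because the positions and values below refer to them. Each is the plus strand of ce11, read from the WBcel235 genome of RefSeq, and reaches 75 bp to each side of the summit. Capitals mark any match to the 8 words that were searched on both strands. The receptor-like words were AGGTCA, a site of many nuclear receptors, its variants AGTTCA in 1 form and AGTCCA in another, and CAAAGTCCA, an HNF4-like word that ends in AGTCCA. The others were TGATAA for GATA factors, GAGAGA for GAGA-type sites, CTGCGTCTC for EOR-1-like sites and CCGCCC for Sp1-type sites.
nhr-68, 399 bp upstream, V:11572966-11573116: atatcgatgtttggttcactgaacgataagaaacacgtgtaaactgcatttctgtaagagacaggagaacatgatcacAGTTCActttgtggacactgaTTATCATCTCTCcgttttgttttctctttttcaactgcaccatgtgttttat
nhr-66, 2464 bp downstream in an intron, IV:8234063-8234213: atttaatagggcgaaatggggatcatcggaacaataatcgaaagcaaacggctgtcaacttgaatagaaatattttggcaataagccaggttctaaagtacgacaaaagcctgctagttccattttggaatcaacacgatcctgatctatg
nhr-10, 1353 bp upstream, III:7116716-7116866: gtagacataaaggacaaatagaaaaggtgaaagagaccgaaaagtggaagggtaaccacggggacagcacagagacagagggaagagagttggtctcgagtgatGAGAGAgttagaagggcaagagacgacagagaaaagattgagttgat
nhr-114, 530 bp upstream, V:4186597-4186747: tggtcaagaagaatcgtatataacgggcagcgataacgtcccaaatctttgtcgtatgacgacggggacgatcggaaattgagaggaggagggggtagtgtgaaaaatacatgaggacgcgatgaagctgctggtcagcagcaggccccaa
nhr-80, 565 bp upstream, III:15359-15509: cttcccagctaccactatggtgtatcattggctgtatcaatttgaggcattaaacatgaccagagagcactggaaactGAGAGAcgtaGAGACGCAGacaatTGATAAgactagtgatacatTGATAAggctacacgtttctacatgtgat

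Of the 7 receptor genes, 6 had a thresholded summit in the window, where 16.7% of all protein-coding genes and 16.4% of the 262 other nhr genes had one. The exception was nhr-13. The 6 genes carried 11 thresholded summits, and 4 genes, nhr-49, nhr-66, nhr-68 and nhr-114, had at least 2, which 3.66% of protein-coding genes had. The windows of the receptor genes ran from 4270 to 12272 bp, and among the 7936 protein-coding genes with windows in that range 20.3% had a thresholded summit and 4.62% had at least 2. The genes were listed with earlier results of these data known, so these counts are descriptions and no test was made on them.

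The 11 thresholded summits lay both before and inside the genes. Upstream of the 5' end there were 5, and inside the genes there were 6, of which 4 lay in introns, 1 in a coding exon and 1 in a 5' UTR. Their median signal was 95.2, against 111 over the whole thresholded list, and 6 of the 11 were below that median of the list. The tRNA gene closest to any of the 11 was 11877 bp away, and the distances over all thresholded summits were not computed.

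**Figure D1:**
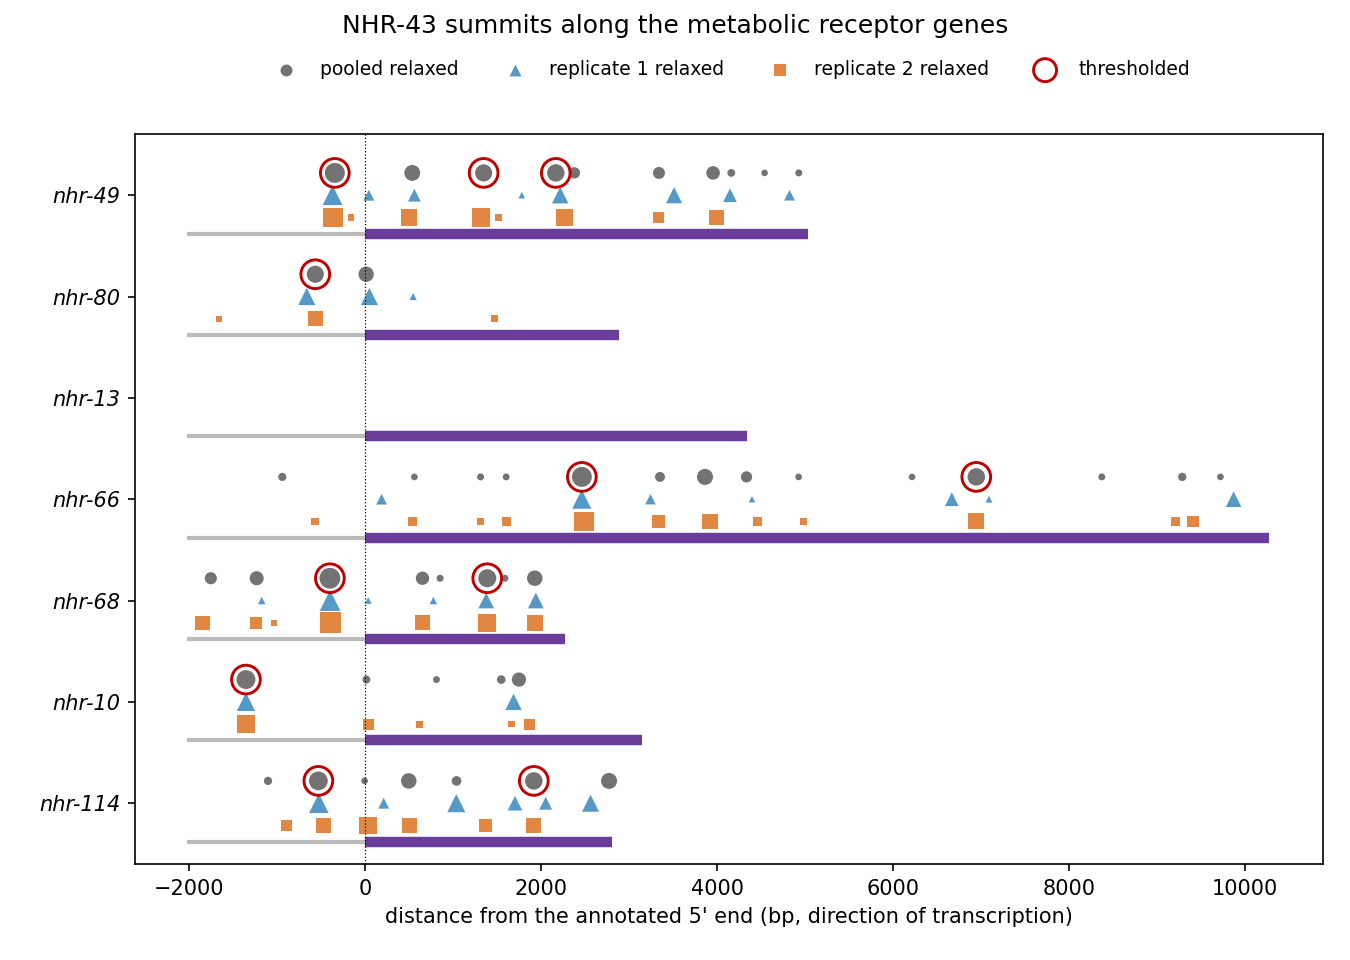
Summits along the 7 receptor genes by distance from the annotated 5' end in bp, with the gene as a purple bar and the 2000 bp upstream as a grey line. Circles, triangles and squares are summits of the pooled, replicate 1 and replicate 2 relaxed lists, larger where they rank higher, and red rings mark the 11 thresholded summits. The row of nhr-13 is empty in every list.

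The largest signal belonged to nhr-68, one of the receptors that activate the propionate shunt (WBGene00003658, V:11573440-11575709, plus strand). Its upstream summit at V:11573041, in a peak from 11572795 to 11573240, had a signal of 1035.6 in the pooled list, 419.9 in replicate 1 and 611.8 in replicate 2. It ranked 43 of 3889 in the thresholded list, 43 in replicate 1 and 44 in replicate 2, and the replicate summits lay 2 and 11 bp away. Replicate ranks were thus nearly identical at this site. Only 27 protein-coding genes, nhr-68 included, had a summit of that rank or higher in the window, and among nhr genes only nhr-21, with a signal of 1494.1, and nhr-14, with 1097.9, stood above it.

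The site lies between nhr-68 and a divergent neighbour. It was 399 bp upstream of nhr-68 but 51 bp upstream of H12C20.7, which is transcribed from the other strand, and peak position alone does not assign it to either gene. The sequence printed for nhr-68 holds AGTTCA on the plus strand, and TGATAA and then GAGAGA on the minus strand, all to the right of the summit. A weaker thresholded summit lay 1389 bp downstream in a coding exon of nhr-68, with a signal of 95.2 in the pooled list, 15.8 in replicate 1 and 55.2 in replicate 2. It ranked 2335 in the thresholded list, 4500 in replicate 1 and 2286 in replicate 2. This second site was 204 bp upstream of the start of H12C20.3b.1, a shorter nhr-68 transcript.

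The partner of nhr-68 in the shunt, nhr-10 (WBGene00003609, III:7112295-7115438, minus strand), had 1 thresholded summit, 1353 bp upstream at III:7116791. Its signal was 129.7 in the pooled list, 31.4 in replicate 1 and 64.9 in replicate 2. The summit fell on the same base in all 3 relaxed lists, with ranks of 1575, 2013 and 1860. The pooled peak was narrow, at 117 bp from 7116749 to 7116865, against a most frequent width of 324 bp in the thresholded list. In the replicates the site had the most frequent widths of their lists, 276 bp in replicate 1 and 324 bp in replicate 2. No other protein-coding window held this summit, and the nearest other 5' end, that of B0280.7, was 4898 bp away. The sequence printed for nhr-10 holds GAGAGA.

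The fatty acid regulator nhr-49 (WBGene00003639, I:9869651-9874680, plus strand) had 3 thresholded summits, the most of the 7 genes. The strongest lay 343 bp upstream in a peak of 146 bp, with a signal of 215.0 in the pooled list, 65.6 in replicate 1 and 112.7 in replicate 2. It ranked 721, 791 and 829 in these lists, so both replicates placed it at a similar height. The replicate summits were 26 and 17 bp away, and no other protein-coding window held the site.

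The other 2 summits of nhr-49 lay in introns, and 1 of them had a close summit in replicate 2 alone. At 1348 bp downstream, 229 bp upstream of the start of the transcript K10C3.6a.1, the signal was 72.9 in the pooled list and 65.8 in replicate 2, at rank 1828. Replicate 1 had its nearest summit 433 bp away, with a signal of 3.6 and rank 23527 of 29315, so this site rests on replicate 2. At 2168 bp downstream the signal was 79.4 in the pooled list, 18.2 in replicate 1 and 40.0 in replicate 2. The replicate summits there were 50 and 95 bp away and ranked 3765 and 3439, so this intronic site was found in both.

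The partner gene nhr-66 (WBGene00003656, IV:8226331-8236602, minus strand) is the longest of the 7, with 10272 bp and 10 annotated transcripts. Its stronger summit lay at IV:8234138, 2464 bp downstream in an intron, with a signal of 209.9 in the pooled list, 42.1 in replicate 1 and 118.8 in replicate 2. The replicate summits were 1 and 21 bp away and ranked 1401 and 753, so both replicates placed the site close to the pooled summit. The summit also lies in an exon of the antisense RNA gene anr-44, and the 5' end of the ncRNA gene T09A12.6 is 548 bp away, nearer than that of nhr-66. None of the 8 words occurs in the sequence printed for this site.

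The weaker summit of nhr-66, at IV:8229656, was 6946 bp downstream of the gene's 5' end but 79 bp upstream of the start of the short transcript T09A12.4j.1. It lies in a 5' UTR of nhr-66, and the 5' ends of anr-44, 2075 bp away, and of the coding gene serp-1.2, 3982 bp away, are nearer than that of the whole gene. The signal was 79.7 in the pooled list and 33.8 in replicate 2, whose summit fell on the same base. In replicate 1 the nearest summit was 144 bp away with a signal of 4.6 and rank 19512. A stronger replicate 1 summit lay further away, at IV:8229934, with a signal of 12.2 and rank 6398. No thresholded summit lay in the 2000 bp before the 5' end of nhr-66, where the pooled relaxed list held 1 summit, 940 bp upstream, at rank 15104.

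The other partner with a site was nhr-80 (WBGene00003670, III:11985-14869, minus strand), a gene close to the left end of chromosome III that acts on the stearoyl-CoA desaturase genes. Its thresholded summit lay 565 bp upstream at III:15434, with a signal of 72.5 in the pooled list, 21.4 in replicate 1 and 28.0 in replicate 2. It ranked 3186 of 3889, the lowest of the 11 summits, and 3072 and 5435 in the replicates. The divergent neighbour H10E21.1 has its 5' end 338 bp from the summit, nearer than that of nhr-80. The sequence printed for nhr-80 holds CTGCGTCTC on the minus strand, GAGAGA and a pair of TGATAA words, all to 1 side of the summit. A further summit at the 5' end, 13 bp inside the gene, had a pooled signal of 50.3, below the lowest thresholded signal of 61.4. Replicate 1 had a summit 50 bp inside the gene with a signal of 21.5, as high as at its upstream site, and replicate 2 had none there.

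The methionine cycle regulator nhr-114 (WBGene00003704, V:4187202-4190008, plus strand) had both of its thresholded summits in intronic sequence of Y45G5AM.9, which is transcribed from the other strand. Its upstream summit at V:4186672, 530 bp before the 5' end, had a signal of 122.4 in the pooled list, 55.8 in replicate 1 and 32.7 in replicate 2. The ranks were 1706 in the thresholded list, 993 in replicate 1 and 4418 in replicate 2, so the site stood far higher in replicate 1. The highest summit of replicate 2 in the window lay elsewhere, 34 bp inside the gene, with a signal of 45.6 and rank 2920. None of the 8 words occurs in the sequence printed for nhr-114, which has a G+C content of 51.0%. An intronic summit 1918 bp downstream had a signal of 80.4 in the pooled list, 11.1 in replicate 1 and 28.7 in replicate 2. The replicate 2 summit fell on the same base and that of replicate 1 was 135 bp away, at rank 7257. The G+C content around this second summit was 29.1%.

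Over the 11 thresholded summits, replicate 2 had a relaxed summit within 100 bp at all 11 and replicate 1 at 8, which were also the 8 with both. Over all nuclear thresholded summits the shares were 92.5% for replicate 2, 84.3% for replicate 1 and 78.1% for both. The 3 sites without a close replicate 1 summit were the nhr-49 intron site at 1348 bp, the nhr-66 site at 6946 bp and the nhr-114 intron site. All 3 lie inside genes, and all 5 upstream sites had both replicates, but the shares by position over the whole list were not computed. All 3 also had signals below the list median of 111, as did sites of nhr-49, nhr-68 and nhr-80 that had both replicates. With replicate 1 and replicate 2 compared directly, 6 of the 7 genes had relaxed summits of both within 100 bp of each other in the window, against 26.9% of protein-coding genes and 32.4% of those with windows as long.

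**Figure D2:**
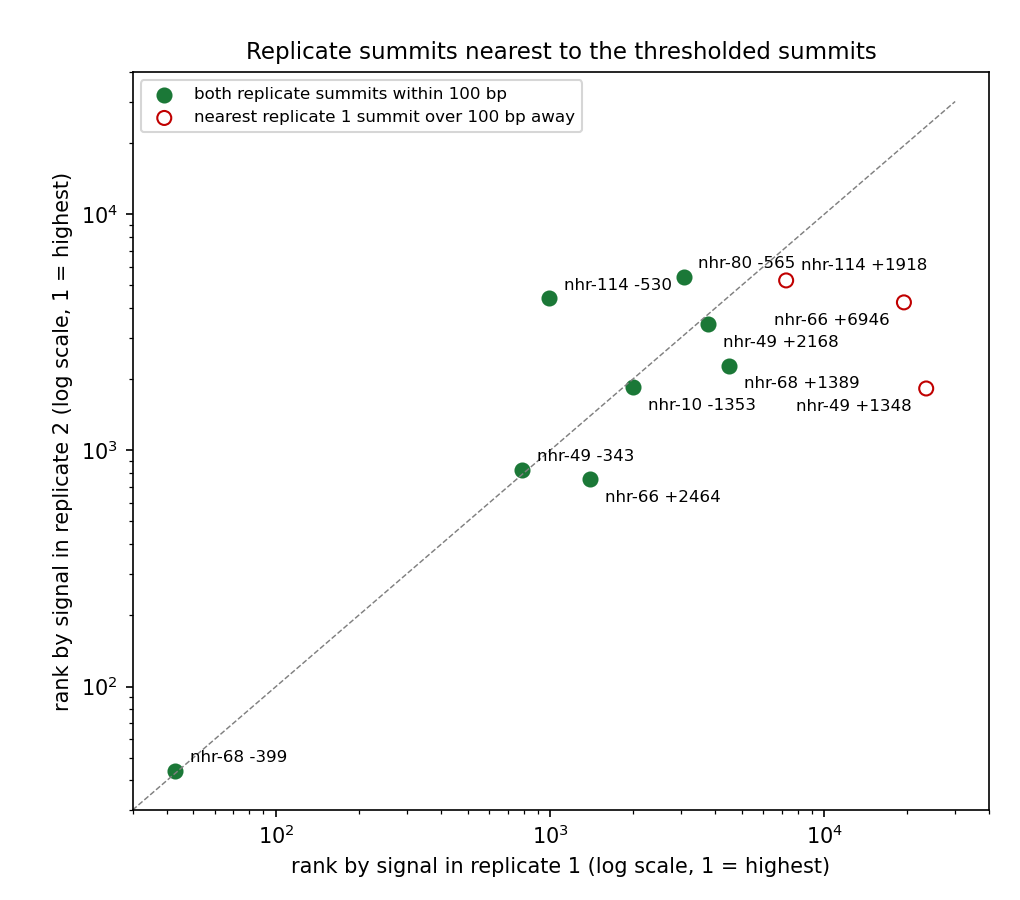
Rank by signal of the summit nearest to each of the 11 thresholded summits in replicate 1 (horizontal) and replicate 2 (vertical), both on log scales, labelled with the gene and the distance from its 5' end in bp. Filled points have summits of both replicates within 100 bp, open points lack a close replicate 1 summit, and the dashed line marks equal ranks. The upstream site of nhr-68 stands apart at ranks 43 and 44.

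The relaxed lists show how densely the genes were covered. The 7 windows held 46 pooled summits, 32 of replicate 1 and 41 of replicate 2, or 1.03, 0.715 and 0.916 per kb of window. Over all protein-coding genes the densities were 0.333, 0.321 and 0.328 per kb, and over the other nhr genes 0.355, 0.357 and 0.380. The pooled density was highest at nhr-68 with 1.87 per kb, followed by nhr-114 with 1.46, nhr-49 with 1.42, nhr-66 with 1.14, nhr-10 with 0.972 and nhr-80 with 0.409. At nhr-80 the replicates, with 0.614 each, were above the pooled value. Among the 46 pooled summits, 17 were at the ceiling of the −log10 q column, as were 5616 of the 30000 peaks of that list. By position, 10 lay upstream, 17 in coding exons and 13 in introns. Their ranks ran from 43 to 28681 of 30000, so the coverage included weak peaks as well as strong ones.

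**Figure D3:**
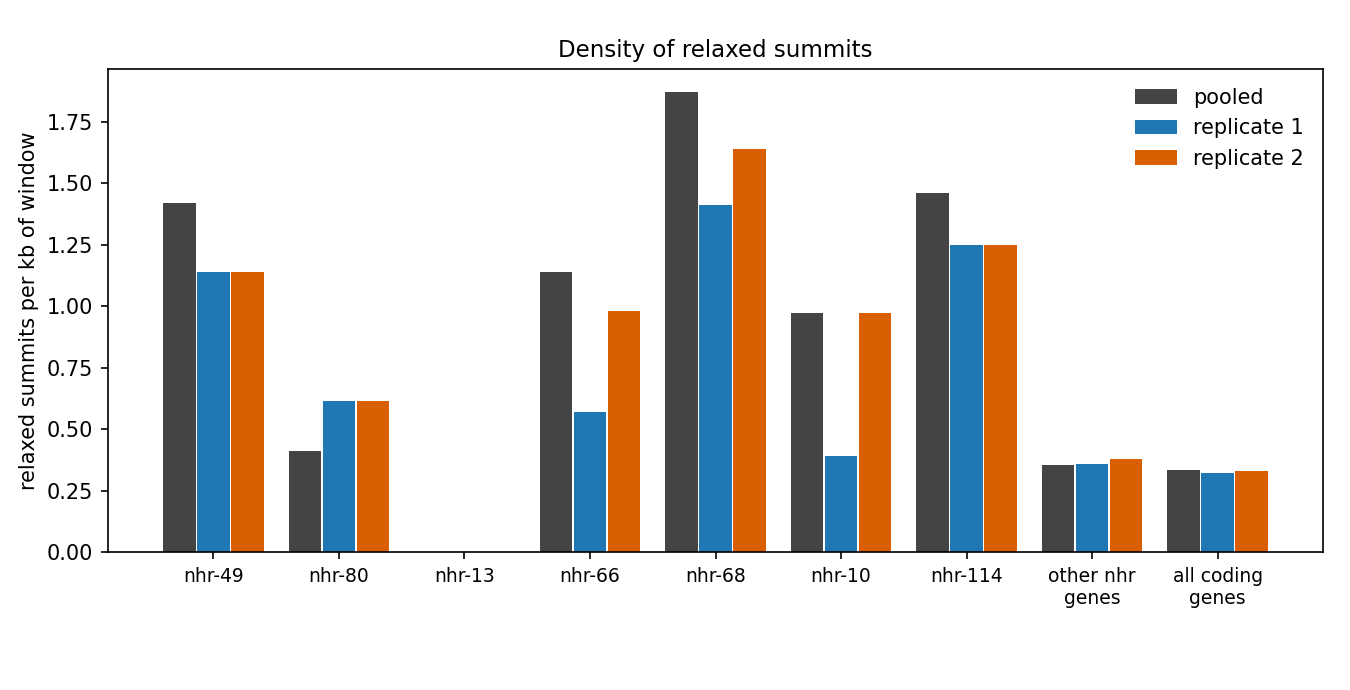
Relaxed summits per kb of window at each of the 7 receptor genes, at the other 262 nhr genes and at all 19973 nuclear protein-coding genes, in the pooled list and in each replicate. Bars start at 0 and are totals over the windows without an error. The value of nhr-68 is 1.87 in the pooled list and nhr-13 has 0 in every list.

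The remaining partner gene, nhr-13 (WBGene00003612, V:2192485-2196827, plus strand), encodes a receptor that binds NHR-49, and it had no summit in any of the relaxed lists. Of protein-coding genes, 26.2% likewise had none in all 3 lists, as did 24.8% of the other nhr genes and 20.2% of protein-coding genes with windows as long. In the pooled list the nearest summits lay 37788 bp before and 13468 bp after the window, which leaves a gap of 57598 bp. The median gap between neighbouring pooled summits was 1044 bp, and 232 of 29975 gaps (0.774%) were at least as long. A share of gaps is not a share of genes, since a long gap can hold many genes. The gap around nhr-13 was 30843 bp in replicate 1 and 31184 bp in replicate 2, so the window and its near surroundings were empty in each library. Gaps at least as long made up 1.36% in replicate 1 and 1.64% in replicate 2. In the thresholded list the gap was 91781 bp, and 6.08% were at least as long. Both replicates had a summit inside the longer pooled gap, 9146 bp before the window in replicate 1 and 10378 bp before it in replicate 2.

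That gap in the pooled list holds 18 protein-coding genes, nhr-13 included. Among them are 7 srbc genes, a family of chemoreceptors, and 4 cytochrome P450 genes, cyp-33C1, cyp-33C2, cyp-33C12 and cyp-32B1, whose products oxidise small molecules. Of the nhr family, nhr-13 is the 1 gene there. The window of nhr-13 is also less unique than those of the other 6 genes. Of its 31-base words, 81.7% occur once in the genome, against 93.8% at nhr-114, 98.8% at nhr-10 6999 of 7000 words at nhr-49 and all words at nhr-80, nhr-66 and nhr-68. Windows at most as unique belong to 2231 protein-coding genes, of which 49.9% had no relaxed summit, and the handling of repeated sequence in the alignment was not given in the sources used here. By the same measure 93.4% of the whole gap was unique. The part of repeated sequence in the lack of summits was not tested.

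By words in the sequence, the 11 summits held 1 receptor-like match. AGGTCA occurred at 0 of the 11, where 5.71% of all nuclear thresholded summits hold it. AGTCCA also occurred at 0, against 3.67%, as did CAAAGTCCA, against 0.233%. AGTTCA occurred at 1, the upstream site of nhr-68, against 7.91%. GAGAGA occurred at 5 of the 11, in 5 genes, against 26.8%, and TGATAA at 4, at nhr-49, nhr-68 and nhr-80, against 16.5%. CTGCGTCTC and CCGCCC occurred at 1 each, against 6.74% and 7.26%. The median G+C content within 75 bp was 39.1% at these summits and 43% over the whole list. A match describes the letters in the window, and 11 summits are too few to read these shares as different from those of the list.

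Other nhr genes were ranked by how close their highest summit came to that of each receptor gene in log10 rank over the pooled and both replicate lists, among 99 candidates. The closest to nhr-68 was nhr-14, at a distance of 0.10, and the next was nhr-43 itself at 0.45, with ranks of 87, 74 and 75. The transgene encodes NHR-43, and the part of transgene copies in the signal at nhr-43 was not tested. The closest to nhr-49 were nhr-142 and nhr-31, both at 0.17, and to nhr-66 they were nhr-1 at 0.09 and nhr-237 at 0.17. Next to nhr-10 stood nhr-120 at 0.06 and nhr-105 at 0.11, next to nhr-114 nhr-23 at 0.15 and nhr-32 at 0.23, and next to nhr-80 nhr-135 at 0.20 and nhr-41 at 0.21. Among the 49 nhr genes with a thresholded summit, the order by highest signal placed nhr-68 at 3, nhr-49 at 14, nhr-66 at 15, nhr-10 at 26, nhr-114 at 28 and nhr-80 at 46. Neighbours in that order such as nhr-49 (215.0) and nhr-66 (209.9) swapped places between the replicates, where nhr-49 ranked 791 and 829 and nhr-66 ranked 1401 and 753.

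The enzymes and partners of the pathways that these receptors regulate were counted in the same windows. Of 37 genes in 4 lists, 23 (62.2%) had a thresholded summit, against the 16.7% of all protein-coding genes, and the median number of pooled relaxed summits was 5 against 1. Window lengths differ between genes, and no comparison with windows of similar length was made for these lists. Whether the 5' end of another gene lies nearer to the summits of these genes was not examined. These lists were also drawn up with earlier results known. The shares differed between lists, from 2 of 6 in the canonical propionate pathway to 7 of 8 in the methionine and SAM cycle, which are too few genes to rank the lists.

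In the propionate shunt, 4 of 5 genes had a thresholded summit. The highest was at hach-1, a hydrolase of the shunt, 311 bp upstream with a signal of 390.4 and ranks of 212 and 397 in the replicates. At hphd-1, a dehydrogenase of the shunt, a summit 132 bp downstream had a signal of 238.8. At acdh-1, an acyl-CoA dehydrogenase that starts the shunt, the highest of 3 summits lay 108 bp downstream with 159.0, and at ech-6, an enoyl-CoA hydratase, the summit 196 bp upstream had 160.7. The nearest replicate 1 summit at ech-6 was 202 bp away, while at hach-1, hphd-1 and acdh-1 both replicates had one within 100 bp. Only alh-8 lacked one, with 4 pooled relaxed summits. In the canonical, B12-dependent pathway the genes with a thresholded summit were mmab-1 (167.0, 64 bp upstream) and pccb-1 (82.2, 2464 bp downstream), while pcca-1, mmaa-1, mce-1 and mmcm-1 had 2 to 6 pooled relaxed summits each.

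In the methionine and SAM cycle the list was led by mtrr-1, the reductase of methionine synthase, with a signal of 299.0 at a site 1716 bp upstream. Next came mel-32, a serine hydroxymethyltransferase, with 185.8, and mthf-1, a methylenetetrahydrofolate reductase, with 138.2 and 4 thresholded summits. The SAM synthetase gene sams-1 had 3 summits with a highest signal of 113.5, the methionine synthase gene metr-1 had 4 with 103.6, ahcy-1 had 89.4 and cbs-1 had 64.3. At ahcy-1 the nearest replicate 1 summit was 107 bp away, and the replicate summits at cbs-1 were weak, at ranks 18313 and 11924. The transporter gene pmp-5 had none that passed the threshold.

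In the lipid list 10 of 18 genes had a thresholded summit. The highest signals were 267.1 at cpt-2, a carnitine palmitoyltransferase gene, 246 bp upstream, and 241.3 at acs-2, an acyl-CoA synthetase gene and target of NHR-49, 697 bp upstream. The glyoxylate cycle gene icl-1 had 7 thresholded summits with a highest signal of 171.3, and the fatty acid synthase gene fasn-1 had 6 with a highest of 109.1. The coactivator gene mdt-15, a Mediator subunit that works with NHR-49, had 145.0 at a site 1969 bp upstream, and the acetyl-CoA carboxylase gene pod-2 had 143.8. The lysosomal lipase gene lipl-4 had 104.8, the desaturase gene fat-2 had 98.3 and fmo-2, a flavin-containing monooxygenase gene induced on fasting through NHR-49, had 70.4. Of the desaturase genes fat-5, fat-6 and fat-7, only fat-6 had a thresholded summit, with a signal of 73.9 in an intron. The nearest replicate 1 summit was 805 bp from that of pod-2, 176 bp from that of fat-6 and 126 bp from that of fat-2, all beyond the 100 bp used for a match. The fat-6 summit lies 11949 bp past the end of nhr-43, and the extent of genomic DNA carried by the transgene was not given in the sources used here. No thresholded summit was found at ech-1.1, lbp-8, cpt-5, hacd-1, acs-22 or sbp-1.

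**Figure D4:**
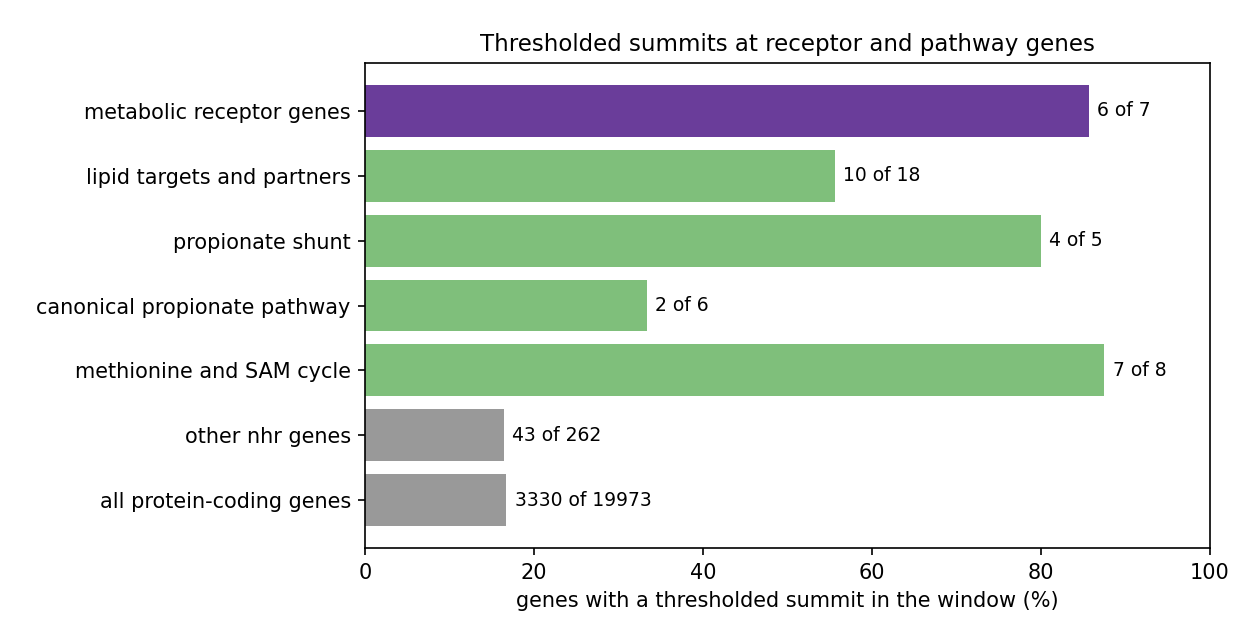
Share of genes with a thresholded summit from 2000 bp upstream to the gene end, in percent, for the 7 receptor genes, the 4 pathway lists, the other nhr genes and all nuclear protein-coding genes, with the counts beside the bars. The receptor genes stand at 6 of 7 and all protein-coding genes at 3330 of 19973.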

How the data were processed

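ChIP-seq peak lists of 2 biological replicates were used. Per the file names, the authors deposited a relaxed list for each replicate, a relaxed list from pooled reads and a thresholded list, all on ce11. Column 7 is the signal of each peak as deposited by the authors, and column 9 is a −log10 q value, deposited with a ceiling of 2.69 in the pooled list that all 3889 thresholded peaks reach. These were the 3889 pooled peaks of highest signal. The aligner and peak caller were not given in the sources used here. Lists on ce10 were not used.

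Summits (column 2 plus column 10, counted from 1) were assigned to genes of Ensembl release 115 (WBcel235) with Python 3.11.15, pandas 2.3.3 and numpy 2.4.6, and mitochondrial peaks were left out. No peak ran past a chromosome end. The procedure was tested on simulated summits. The 7 genes and the pathway lists were chosen with earlier results of these data known. No test between conditions was possible with 1 group, and depth is unknown, so no interval was computed.

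Named were the 7 genes, nhr-43, genes with a 5' end nearer to a thresholded summit, the 2 nhr genes most alike in rank and the pathway genes with such a summit. Genes of the nhr-13 gap, nhr-21, pathway genes without a summit and B0280.7 were named after their values were seen. Alternatives covered the window, the threshold, peak overlap, the distance between replicates and single replicates. The comparison with windows of similar length was added after seeing the data.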

Additional observations from a re-analysis of the deposited data

How the results depend on the processing

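Of 44 alternative values, 39 stayed within 1.5 times the reported one. For counts of receptor genes this limit is wide, since a fall from 6 to 4 stays within it and no count can pass 7. The number of receptor genes with a thresholded summit was 4 with windows from 500 bp upstream, where nhr-80 and nhr-10 dropped out. It was 5 with only the 5' part, where nhr-66 dropped out, and 6 with windows from 5000 bp upstream. Over all protein-coding genes the shares were 12%, 13.3% and 23.3% in the same order. In every alternative nhr-13 had none. The thresholded summits at the receptor genes fell from 11 to 5 when the window ended 200 bp past the 5' end and to 5 with the 1944 thresholded peaks of highest signal. With those peaks, 5 receptor genes, 9.85% of protein-coding genes, 11.5% of nhr genes and 14 pathway genes had a summit, and nhr-80 lost its own. Fewer peaks or shorter windows make these counts smaller by construction. With the 3889 highest peaks of a single replicate, the receptor genes with a summit numbered 5 to 6 (nhr-80 was lost in replicate 2), their summits 9 to 11, the protein-coding genes 16.3 to 16.6%, the nhr genes 17.5 to 18.6% and the pathway genes 22 to 26. Relaxed density in a single replicate was 0.715 to 0.916 per kb. The receptor genes with both replicates numbered 4 with summits within 50 bp and 4 with windows from 500 bp upstream. They numbered 6 with summits within 200 bp and 6 with windows from 5000 bp upstream. The shares over all protein-coding genes in these settings were not computed.

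No paired analysis was possible because there is 1 group. The libraries' depth is unknown, which leaves the precision of each signal unknown, and 7 genes are too few for shares of the list to be compared closely. Peaks were assigned by position, and the upstream sites of nhr-68 and nhr-80 lie nearer to a divergent gene.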

Other observations

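Below the threshold, 35 pooled summits lay in the windows of the receptor genes, and 4 of these (11.4%) had summits of both replicates within 100 bp, against 14.3% of all 26111 nuclear pooled summits below the threshold. One lay in an intron of nhr-49, 537 bp downstream, with a signal of 56.0 in the pooled list, 10.8 in replicate 1 and 36.0 in replicate 2. At nhr-68 there were 2, an intronic site 1929 bp downstream with signals of 51.7, 16.1 and 32.8 in the same lists and an upstream site at 1231 bp with 41.6, 5.6 and 20.2. The last lay in a coding exon of nhr-10, 1749 bp downstream, with 42.6, 18.1 and 8.6, with a rank of 3780 in replicate 1 but 23296 in replicate 2. The share with both replicates was thus no higher at these genes than over the list, and the difference was not tested.

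Inside the genes, 3 of the 6 thresholded summits lay shortly before the start of a shorter annotated transcript, at 229 bp for nhr-49, 79 bp for nhr-66 and 204 bp for nhr-68. The summits at 229 and 79 bp were also among the 3 without a close summit of replicate 1. This arrangement was noticed after the values were seen, and how often summits inside other genes lie so close to a transcript start was not computed.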
